A study of Mus musculus with 4 samples.

Results

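The insulin-like growth factor (IGF) axis was examined through 10 genes, taken by their symbols from the 23238 gene symbols of the count files: the ligand gene Igf1, the receptor genes Igf1r and Igf2r, 6 genes of IGF-binding proteins (Igfbp2, Igfbp3, Igfbp4, Igfbp5, Igfbp6 and Igfbp7), and Irs1, which encodes an adaptor. All 10 were found once in each file, and all 10 passed the filter on low counts. RNA sequencing measured them in mammary gland tumours of female FVB mice at 14 weeks of age, 2 tumour samples labelled Nr1d1+/+ and 2 labelled Nr1d1-/-. Every animal, controls included, carried PyMT, the polyoma virus middle T antigen, an oncogene that drives mammary carcinoma. Nr1d1 encodes REV-ERBα, a circadian repressor of transcription. The sources used here name neither the promoter of the transgene nor the exons that the null allele lacks. Whether each replicate is a different animal is not stated either, and a p-value then covers the spread between these samples alone, which may be technical.

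IGF-1 is a secreted peptide that signals through the IGF-1 receptor, a tyrosine kinase, and insulin receptor substrates such as IRS1 pass its signal to the PI3K and MAPK pathways. The receptor encoded by Igf2r binds IGF-2 and mannose 6-phosphate and clears IGF-2 to the lysosome without a kinase of its own. IGF-binding proteins carry IGFs in the extracellular fluid, limit or prolong their access to the receptor, and are cut by proteases such as PAPP-A. In the mammary gland the axis acts in ductal growth, and Igfbp5 is known for its rise when the gland involutes.

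Total counts ran from 15905404 to 19116279 per library. Nr1d1 itself did not differ clearly between the labels: its level was 20.2 and 10.3 CPM in the Nr1d1+/+ libraries (replicate 1, then 2) and 10.6 and 12.8 CPM in the Nr1d1-/- libraries (log2 fold -0.37 ± 0.35 as SE, with edgeR adjusted p = 0.436), and without Nr1d1+/+ replicate 1 its sign turned (0.14). Nr1d1 shares 263 exon bases with Thra on the opposite strand, and with the deleted exons unknown its counts are no test of the genotype. Every direction below relies on the sample labels. Luminal epithelial markers summed to 6723 and 5768 CPM in the Nr1d1+/+ libraries and to 10554 and 9696 CPM in the Nr1d1-/- libraries, with none of the 10 at 0. Of these, 4 were higher (the keratins Krt8, Krt18 and Krt19, and Gata3), Cdh1 was lower (log2 fold -0.73) and 5 did not pass. The most abundant was Krt18, at 2056 and 1654 CPM against 4457 and 3601 CPM, and Epcam, Elf5 and Esr1 overlapped between the genotypes. After adjustment for GC and length trends Krt8, Krt18 and Cdh1 did not pass (edgeR adjusted p = 0.138, 0.115 and 0.062). The part of the luminal markers in the results below was not tested. Nr1d1-/- replicate 1 stood apart: 8 skeletal muscle markers summed to 753 CPM there and to at most 5.46 CPM in the other 3 libraries. Values without that library are given where the call of a named member or pathway gene depended on it.

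Levels are CPM, a gene's counts relative to the depth of its library, scaled with TMM factors, and fold changes are log2 of the Nr1d1-/- libraries over the Nr1d1+/+ libraries with the standard error (SE) of edgeR's quasi-likelihood fit. A gene was called when its p, adjusted by Benjamini-Hochberg over 14801 tested genes, was under 0.05. Of the 10 IGF axis genes, 4 rose (Igf1, Igfbp2, Igfbp4 and Igfbp7), 3 fell (Igf2r, Igfbp5 and Irs1) and 3 did not pass (Igf1r, Igfbp3 and Igfbp6). Across all tested genes 33.9% were called, 16.5% as higher and 17.3% as lower. These shares also stand beside the counts of called marker and pathway genes in this fit. The values of the genotypes did not overlap for 9 of the 10 genes, against 70.5% of all tested genes. The median log2 fold of the 10 genes was 0.89, and that of all tested genes was -0.01. The members were chosen with results of these data known, so nothing particular to the IGF axis is read from these counts.

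**Figure D1:**
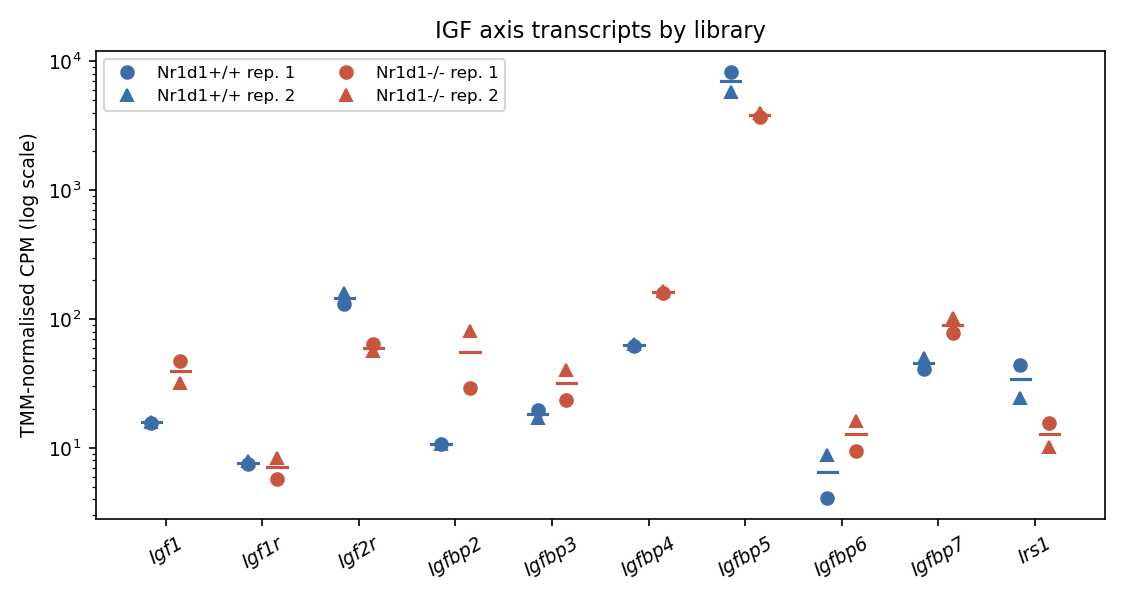
TMM-normalised CPM (log axis) of the 10 IGF axis genes in each library; points are libraries and short lines are the means of 2 libraries per genotype. Igfbp5 lies far above the other 9 genes in all 4 libraries, and only for Igf1r do the genotypes overlap.

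Stretches before the annotated starts of 3 members that changed are shown, because they hold the 6-letter half-site of REV-ERB and ROR receptors or the E-box of the circadian activators. The 250 bases before each RefSeq start (GRCm38.p6) were searched on both strands for AGGTCA and for CACGTG, which reads alike on both strands. All 10 genes matched, with 11 windows. AGGTCA was found in 3 of these windows (Igf1, Igf1r and Igf2r) and in 14.0% of all 32851 windows. CACGTG was found in 3 windows (Igfbp2, Igf2r and Irs1) and in 6.02% of all windows. Capitals mark the matched letters, and each stretch is written 5′ to 3′ on the strand of its gene.
Igf2r promoter, chr17:12769707-12769956, minus strand: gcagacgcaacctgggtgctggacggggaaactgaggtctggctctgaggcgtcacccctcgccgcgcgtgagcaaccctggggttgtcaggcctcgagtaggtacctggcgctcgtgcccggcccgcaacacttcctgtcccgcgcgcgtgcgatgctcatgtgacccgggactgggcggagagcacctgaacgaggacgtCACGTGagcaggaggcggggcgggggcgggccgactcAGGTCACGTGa
Irs1 promoter, chr1:82291440-82291689, minus strand: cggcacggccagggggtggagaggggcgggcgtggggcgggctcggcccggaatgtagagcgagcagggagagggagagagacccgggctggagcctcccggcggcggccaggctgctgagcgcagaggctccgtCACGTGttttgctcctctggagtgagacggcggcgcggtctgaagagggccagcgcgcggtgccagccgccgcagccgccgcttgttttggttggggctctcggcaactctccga
Igfbp2 promoter, chr1:72824230-72824479, plus strand: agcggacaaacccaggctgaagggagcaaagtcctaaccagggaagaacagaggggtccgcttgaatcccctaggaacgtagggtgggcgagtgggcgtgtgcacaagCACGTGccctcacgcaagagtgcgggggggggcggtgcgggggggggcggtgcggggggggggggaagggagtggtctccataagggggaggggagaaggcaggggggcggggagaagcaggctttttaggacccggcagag
The Igf2r stretch holds CACGTG 48 and 7 bases before the start, and the second of these overlaps the AGGTCA that begins 11 bases before the start, so the run of capitals there is a merged match. In Irs1 the E-box begins 115 bases before the start and in Igfbp2 142 bases before it. In Igf1 the half-site begins 161 bases before the start, in a window that overlaps an annotated exon and is not shown. Igf1r, which did not pass, holds the half-site on the opposite strand, 86 bases before the start, and its stretch is not shown either. A match is a description of letters and not a measured binding site.

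Igf1, the ligand of the axis, rose in the libraries labelled Nr1d1-/-. The gene lies on chromosome 10, bases 87858265 to 87937042 on the forward strand (GRCm38). Its level was 15.7 and 16.04 CPM in the Nr1d1+/+ libraries (replicate 1, then 2) and 47.0 and 31.8 CPM in the Nr1d1-/- libraries. Both Nr1d1-/- libraries lay above both Nr1d1+/+ libraries, which were nearly equal. The mean went from 15.8 ± 0.269 to 39.4 ± 10.8 CPM (SD, n = 2 per genotype), a log2 fold of 1.31 with an SE of 0.25 (edgeR adjusted p = 0.00618). After adjustment for trends of GC content and transcript length in each library the log2 fold was 1.93 (edgeR adjusted p = 0.00265), and without Nr1d1-/- replicate 1, the library with the skeletal muscle transcripts, it was 1.001 (0.0221).

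Summed macrophage and adipocyte markers were higher in the same libraries as Igf1, and so were those of every other listed cell type except fibroblasts. In bulk tumours, more cells of a type and more RNA per cell cannot be told apart. The 10 macrophage markers summed to 168 and 255 CPM in the Nr1d1+/+ libraries and to 353 and 516 CPM in the Nr1d1-/- libraries, with none at 0. Only the complement genes C1qa, C1qb and C1qc, 3 of 10, were called higher. The other 7 did not pass, with log2 folds from 0.02 (Adgre1) to 0.74 (Lyz2), so the higher sum does not hold for the markers as a set. C1qb also lost its call after adjustment for GC and length trends (edgeR adjusted p = 0.109). Of 8 tested adipocyte markers 5 rose, where 16.5% of all tested genes rose. The 3 that did not pass, Plin1, Cidec and Lipe, overlapped between the genotypes. After adjustment for GC and length trends, Adipoq, Retn and Cfd also did not pass (edgeR adjusted p = 0.0543, 0.0823 and 0.0629). Fabp4 and Aqp7 still passed (0.00252 and 0.00562). The 9 listed summed to 70.1 and 88.2 CPM against 300.4 and 202 CPM, with Lep at 0 in both Nr1d1-/- libraries. Fabp4 (100.4 and 83.1 CPM) and Aqp7 (109.7 and 74.1 CPM) were the largest parts of the Nr1d1-/- sums. Fibroblast markers overlapped between the genotypes, at 853 and 1465 CPM against 1226 and 1476 CPM, with 1 of 10 called higher and none at 0. The part of these cells in the Igf1 result was not tested.

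Of the receptor genes, Igf2r fell and Igf1r did not pass, and the difference between them was not tested. Igf1r, the signalling receptor, lies on chromosome 7, bases 67952827 to 68233668 on the forward strand. Its level was 7.48 and 7.90 CPM in the Nr1d1+/+ libraries (replicate 1, then 2) and 5.79 and 8.31 CPM in the Nr1d1-/- libraries. The Nr1d1+/+ libraries lay within the range of the Nr1d1-/- libraries. The log2 fold was -0.12 (SE 0.33, 95% interval -0.87 to 0.64, edgeR adjusted p = 0.81), and an interval this wide leaves room for a change in either direction. Its sign turned to 0.15 after adjustment for GC and length and to 0.11 without Nr1d1-/- replicate 1.

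Igf2r, the clearing and lysosomal sorting receptor, fell. It lies on chromosome 17, bases 12682406 to 12769664 on the reverse strand and is imprinted in the mouse, where the maternal copy is the one expressed. Its level was 130.1 and 159 CPM in the Nr1d1+/+ libraries (replicate 1, then 2) and 63.6 and 56.5 CPM in the Nr1d1-/- libraries. Every Nr1d1-/- value was below every Nr1d1+/+ value, and replicates differed far less than the genotypes. The mean fell from 144.6 ± 20.5 to 60.1 ± 5.02 CPM, a log2 fold of -1.27 with an SE of 0.19 (edgeR adjusted p = 0.00293), and it was -1.03 after adjustment for GC and length (0.0056). Airn, the antisense RNA that silences the paternal Igf2r copy, starts within Igf2r but shares 0 annotated exon bases with it. Its level was 5.35 and 4.40 CPM against 5.57 and 5.40 CPM (log2 fold 0.17 ± 0.35 as SE, with edgeR adjusted p = 0.74), and its sign turned when scaled by library size alone (-0.21).

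Irs1, the adaptor that docks PI3K to the active receptor, fell. It lies on chromosome 1, bases 82233101 to 82291416 on the reverse strand. Its level was 44.3 and 24.4 CPM in the Nr1d1+/+ libraries (replicate 1, then 2) and 15.7 and 10.2 CPM in the Nr1d1-/- libraries. The genotypes did not overlap, but the Nr1d1+/+ libraries were far apart. The mean fell from 34.3 ± 14.1 to 12.9 ± 3.90 CPM, a log2 fold of -1.41 with an SE of 0.34 (edgeR adjusted p = 0.0145). Without Nr1d1+/+ replicate 1 the log2 fold was -0.97 and did not pass (edgeR adjusted p = 0.0839). An annotated gene on the opposite strand, Gm9747, shares 2822 exon bases with Irs1, and the strand setting of the counting is not known here, so the Irs1 counts may include reads of both.

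Igfbp5, which encodes the binding protein known from the involuting gland, was by far the most abundant member, and it fell. The gene lies on chromosome 1, bases 72857932 to 72874884 on the reverse strand. Its level was 8268 and 5837 CPM in the Nr1d1+/+ libraries (replicate 1, then 2) and 3730 and 3956 CPM in the Nr1d1-/- libraries. The Nr1d1-/- libraries were close to each other and below both Nr1d1+/+ libraries. The mean fell from 7053 ± 1719 to 3843 ± 160.3 CPM, a log2 fold of -0.88 with an SE of 0.26 (edgeR adjusted p = 0.0332). As a share of all counts Igfbp5 took 0.914% (95% exact Clopper-Pearson interval 0.91 to 0.918) and 0.686% (0.682 to 0.69) in the Nr1d1+/+ libraries and 0.32% (0.317 to 0.323) and 0.354% (0.351 to 0.357) in the Nr1d1-/- libraries. These intervals cover counting error only. By count it ranked 5 and 6 among all genes in the Nr1d1+/+ libraries and 36 and 28 in the Nr1d1-/- libraries. The call was lost after adjustment for GC and length (log2 fold -0.60, edgeR adjusted p = 0.156) and in 3 of the 4 fits without 1 library: the log2 fold was -0.65 when Nr1d1+/+ replicate 1 was dropped (0.113), -0.84 when Nr1d1-/- replicate 1 was (0.194) and -0.94 when Nr1d1-/- replicate 2 was (0.137).

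Igfbp2, whose protein binds IGF-2 in particular, lies next to Igfbp5 and went the other way. It spans 72824503 to 72852474 on the forward strand of chromosome 1, 5457 bases from Igfbp5, and the genes point toward each other. Its level was 10.7 and 10.8 CPM in the Nr1d1+/+ libraries (replicate 1, then 2) and 29.0 and 81.5 CPM in the Nr1d1-/- libraries. The Nr1d1+/+ libraries were almost equal, and both Nr1d1-/- libraries were higher but far from each other. The mean rose from 10.8 ± 0.0575 to 55.3 ± 37.1 CPM, a log2 fold of 2.36 with an SE of 0.43 (edgeR adjusted p = 0.00499). This was the largest fold among the 10 genes in that fit, but Igf1 had the larger one after adjustment for GC and length (1.93) and without Nr1d1-/- replicate 2 (1.55). The log2 fold was 1.41 once Nr1d1-/- replicate 2, which held the high value, was dropped and 1.499 after adjustment for GC and length, and both still passed (edgeR adjusted p = 0.00682 and 0.0301).

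Igfbp4, which encodes an inhibitor of IGF action that PAPP-A inactivates by cleavage, rose with the smallest SE of the 10 genes. It lies on chromosome 11, bases 99041244 to 99054392 on the forward strand, 266 kb from Nr1d1. Its level was 62.2 and 63.5 CPM in the Nr1d1+/+ libraries (replicate 1, then 2) and 158.9 and 165 CPM in the Nr1d1-/- libraries. The gap between the genotypes was many times the gap between replicates. The mean rose from 62.9 ± 0.935 to 162 ± 4.64 CPM, a log2 fold of 1.37 with an SE of 0.17 (edgeR adjusted p = 0.00216), and it was 1.33 after adjustment for GC and length (0.00247). Of the 8 tested genes that lie between Nr1d1 and Igfbp4, 1 rose, 1 fell and 6 did not pass, where 33.9% of all tested genes were called.

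Igfbp7, a secreted protein of vessel walls and stroma that binds IGFs weakly, rose before the trends were removed. It lies on chromosome 5, bases 77349240 to 77408041 on the reverse strand and shares 85 exon bases with Polr2b on the opposite strand. Its level was 40.6 and 50.2 CPM in the Nr1d1+/+ libraries (replicate 1, then 2) and 78.1 and 101.9 CPM in the Nr1d1-/- libraries. All Nr1d1-/- values were above all Nr1d1+/+ values. The mean rose from 45.4 ± 6.78 to 90.0 ± 16.9 CPM, a log2 fold of 0.99 with an SE of 0.21 (edgeR adjusted p = 0.00942). The call was lost after adjustment for GC and length (log2 fold 0.26, edgeR adjusted p = 0.395), when scaled by library size alone (0.61, 0.0598) and without Nr1d1+/+ replicate 1 (0.80, 0.0648). The 10 endothelial markers summed to 53.7 and 64.4 CPM in the Nr1d1+/+ libraries and to 87.8 and 118 CPM in the Nr1d1-/- libraries, with none at 0. Of these, 5 of 10 were called higher, where 16.5% of all tested genes were. Cldn5 lost its call after adjustment for GC and length (edgeR adjusted p = 0.163). Cdh5 and Kdr were lower in both Nr1d1-/- libraries but did not pass (log2 fold -0.46 and -1.14). The 8 markers of pericytes and smooth muscle summed to 73.9 and 95.2 CPM against 158 and 229 CPM, with 2 of 8 called higher (Acta2 and Des) and none at 0. Des, which skeletal muscle also expresses, was at 61.4 CPM in Nr1d1-/- replicate 1, and without it the other 7 summed to 72.5 and 92.8 CPM against 96.8 and 222 CPM. Of these only Acta2 was called, at 23.6 and 21.1 CPM against 49.2 and 134.8 CPM. The other 6 did not pass, and Rgs5, Myh11 and Tagln had positive log2 folds. Those of Cspg4, Mcam and Abcc9 were negative (-0.28, -0.54 and -0.35). The 7 basal and myoepithelial markers summed to 136 and 147 CPM against 321 and 369 CPM. Krt14, Krt17, Oxtr, Mylk and Cnn1 were called higher, Trp63 was called lower and Krt5 did not pass. Krt17 and Trp63 lost their calls after adjustment for GC and length (edgeR adjusted p = 0.0875 and 0.225). The part of these cells in the Igfbp7 result was not tested.

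Igfbp3 and Igfbp6 did not pass. Igfbp3, the main carrier of IGFs in blood, lies on chromosome 11, bases 7206086 to 7213923 on the reverse strand. Its level was 19.8 and 17.1 CPM in the Nr1d1+/+ libraries (replicate 1, then 2) and 23.5 and 40.0 CPM in the Nr1d1-/- libraries (log2 fold 0.79 ± 0.28 as SE, with edgeR adjusted p = 0.061). The genotypes did not overlap, and the high value was that of Nr1d1-/- replicate 2. Without Nr1d1-/- replicate 1 the log2 fold was 1.11 and passed (edgeR adjusted p = 0.0131), and without Nr1d1-/- replicate 2 it was 0.33 (0.38). Igfbp6, whose protein prefers IGF-2, lies on chromosome 15, bases 102144362 to 102149511 on the forward strand. Its level was 4.12 and 8.86 CPM in the Nr1d1+/+ libraries (replicate 1, then 2) and 9.46 and 16.1 CPM in the Nr1d1-/- libraries (log2 fold 0.98 ± 0.42 as SE, with edgeR adjusted p = 0.104). The replicates of each genotype were far apart, and the upper Nr1d1+/+ value came close to the lower Nr1d1-/- value. Its log2 fold was 0.14 after adjustment for GC and length (edgeR adjusted p = 0.846) and 1.31 without Nr1d1-/- replicate 1 (0.0491).

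**Figure D2:**
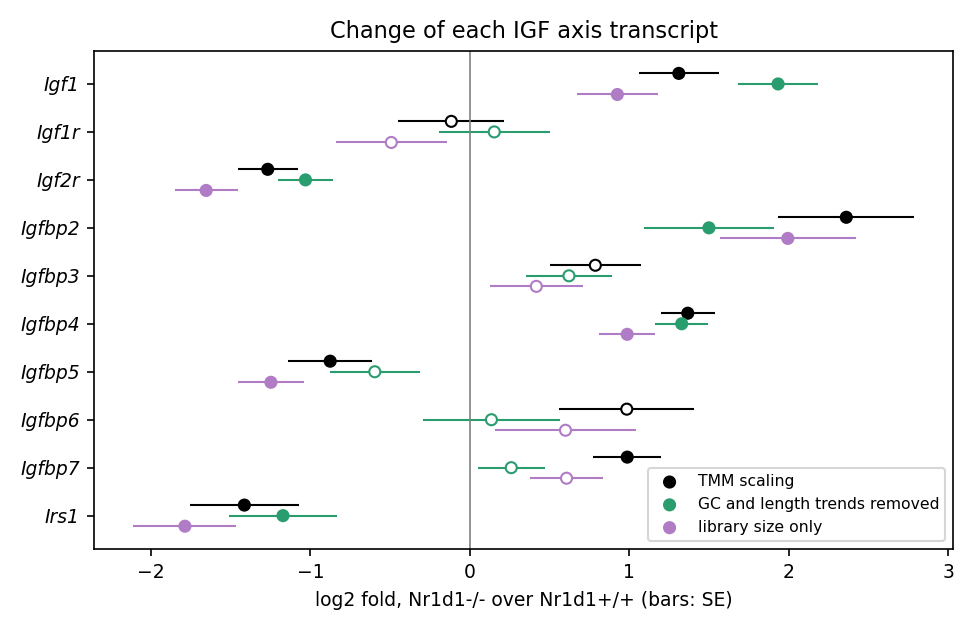
Log2 fold of each IGF axis gene (x axis, bars are SE) under TMM scaling, after adjustment for GC and length trends, and scaled by library size alone; filled points passed at an edgeR adjusted p under 0.05. Igf1, Igf2r, Igfbp2, Igfbp4 and Irs1 passed under all 3, while Igfbp5 and Igfbp7 each lost the call under at least 1 of them.

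The fits with trends removed adjust for transcript length and GC content, which differ widely among the members. The longest annotated transcript of Igfbp2 has 1307 bases and 62.1% GC, that of Igfbp6 1112 bases and 60.7%, and that of Igfbp7 1200 bases and 58.8%. The log2 folds of these 3 genes were 2.36, 0.98 and 0.99 in the TMM fit and 1.499, 0.14 and 0.26 after the adjustment. The transcript of Igf1 has 7052 bases and 38.0% GC, and its log2 fold went from 1.31 to 1.93. With the trends removed, 3 of the 10 genes were higher (Igf1, Igfbp2 and Igfbp4) and 2 lower (Igf2r and Irs1), beside 12.1% and 11.3% of all genes tested in that fit. When counts were scaled by library size alone, 3 members were higher and 3 lower, beside 8.65% and 29.8% of all genes, and the median log2 fold of all genes was then -0.38.

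Leaving out single libraries changed the members' counts. Without Nr1d1+/+ replicate 1, 3 members were higher and 1 lower, where 9.57% and 11.8% of all genes were called. Without Nr1d1+/+ replicate 2 the members' counts were 4 and 3, with 6.75% and 7.62% of all genes called. Dropping Nr1d1-/- replicate 1 gave 6 members higher and 2 lower beside 12.0% and 13.2% of all genes, and dropping Nr1d1-/- replicate 2 gave 4 and 2 beside 15.3% and 15.6%. Igf2r, Igf1, Igfbp2 and Igfbp4 passed in each of these 4 fits.

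**Figure D3:**
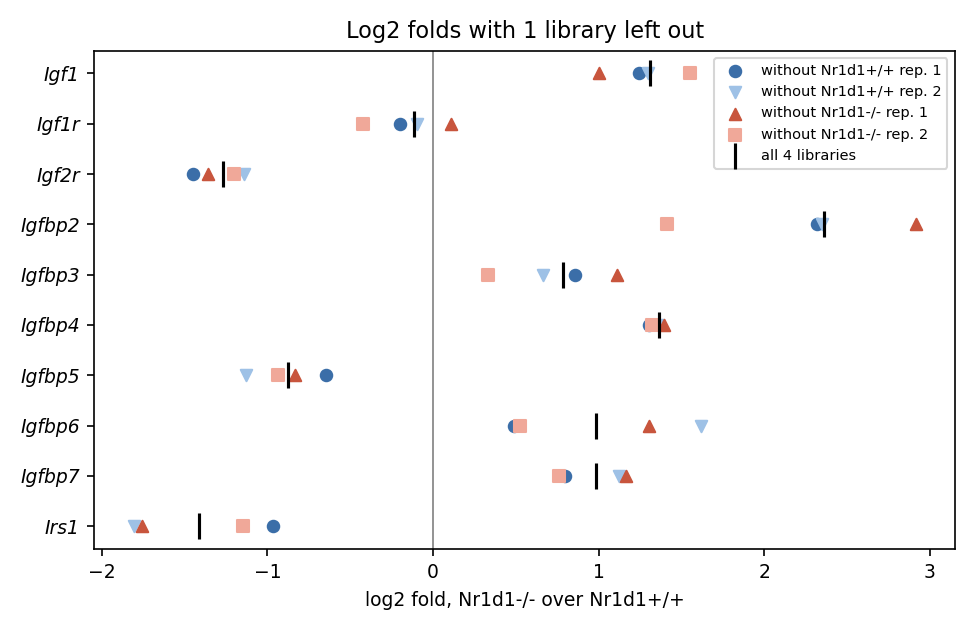
Log2 fold of each IGF axis gene (x axis) in all 4 libraries (black bars) and with each library left out in turn (coloured points). Igf2r and Igfbp4 moved little, Igfbp2 ranged from 1.41 to 2.91, and Igf1r crossed 0.

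Levels were compared between genes per kilobase of annotated exon. In the Nr1d1+/+ libraries Igfbp5 stood at 1174 ± 286 CPM per kb and Igfbp7, the next, at 37.6 ± 5.61 CPM per kb. Igf2r and Igfbp4 followed at 15.5 ± 2.21 and 14.2 ± 0.212 CPM per kb, and their ranges overlapped. Igfbp3, Igfbp2, Igfbp6 and Irs1 lay between 5.90 and 3.75 CPM per kb as means, and each overlapped its neighbour. Igf1 at 1.60 ± 0.0271 and Igf1r at 0.458 ± 0.0179 CPM per kb were the lowest, and each was separate from its neighbours. In the Nr1d1-/- libraries the order began with Igfbp5 at 640 ± 26.7, Igfbp7 at 74.5 ± 14.0 and Igfbp4 at 36.7 ± 1.05 CPM per kb. The ranges of Igfbp4 and Igfbp2 overlapped there, as did those of Igfbp6 and Igfbp3. Igf2r came after all 6 binding protein genes at 6.45 ± 0.540 CPM per kb, Igf1 at 3.98 ± 1.09 CPM per kb passed Irs1 at 1.41 ± 0.426 CPM per kb, and Igf1r was again the lowest.

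The makeup of the binding protein transcripts differed between the genotypes. Igfbp5 made up 95.6% and 92.8% of the summed CPM per kb of the 6 genes in the Nr1d1+/+ libraries (replicate 1, then 2) and 82.4% and 77.3% in the Nr1d1-/- libraries. The other 5 genes together took 5.80 ± 1.96% in Nr1d1+/+ and 20.1 ± 3.61% in Nr1d1-/- libraries. The summed level went from 1244 ± 278 to 803 ± 69.7 CPM per kb. Divided by the per-length level of Igf1, the sum was 911 and 647 in the Nr1d1+/+ libraries and 159 and 266 in the Nr1d1-/- libraries. The values did not overlap, but an exact permutation test of 2 against 2 cannot give a two-sided p below 0.333, so these ratios are descriptions. With the longest transcript in place of all exons as the length, the ratios were 652 and 463 against 115 and 195.

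**Figure D4:**
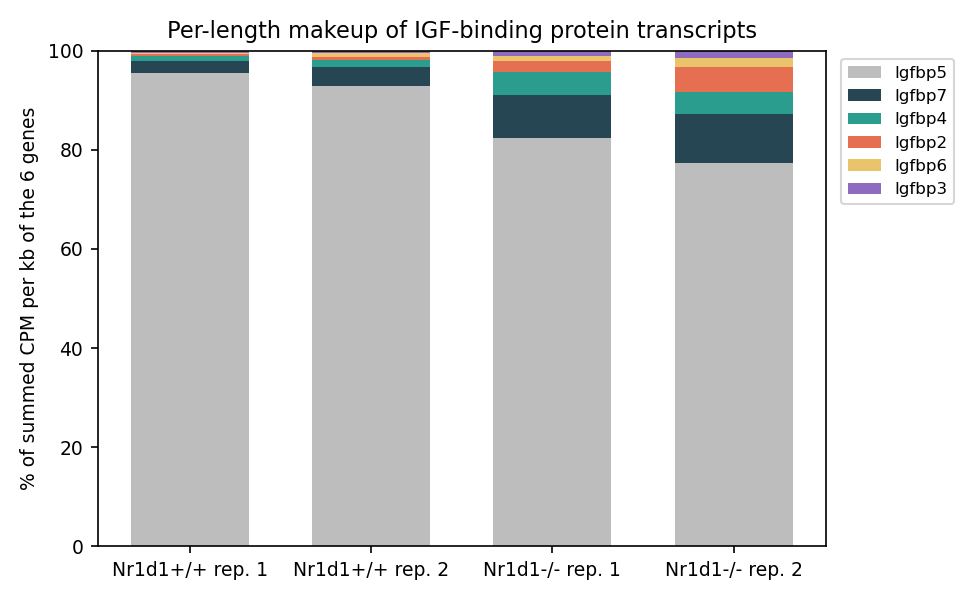
Share of each gene in the summed CPM per kb of the 6 IGF-binding protein genes (y axis, percent) in each of the 4 libraries. The grey Igfbp5 segment is smaller in both Nr1d1-/- libraries, at 82.4% and 77.3%, than in the Nr1d1+/+ libraries, at 95.6% and 92.8%.

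Beyond the 10 genes, 37 others of the pathway were examined by role, of which 31 passed the filter on low counts. Among these, 6 rose, 7 fell and 18 did not pass, with a median log2 fold of 0.02, where 16.5% of all tested genes rose and 17.3% fell. Scaled by library size alone, 2 rose and 9 fell, beside 8.65% and 29.8% of all genes. Igfbp1 and Irs4 had 0 counts in every library. An upper limit taken as 3 counts corresponds to 0.142 to 0.22 CPM per library. Ins1, Insrr and Igfbpl1 had too few counts to test. Ins2 also failed the filter, with 0 and 7 counts in the Nr1d1+/+ libraries and 50 and 0 in the Nr1d1-/- libraries (replicate 1, then 2).

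Among other ligands and receptors, Igf2 was low and Insr rose. Igf2, the foetal growth factor, was at 0.71 and 0.958 CPM against 0.367 and 0.745 CPM (log2 fold -0.54 ± 0.75 as SE, with edgeR adjusted p = 0.605). Insr, the insulin receptor, rose from 96.3 and 82.8 CPM to 248 and 134 CPM (log2 fold 1.09 ± 0.27 as SE, with edgeR adjusted p = 0.0167). The highest Insr value was in Nr1d1-/- replicate 1. Without that library the log2 fold was 0.58 and did not pass (0.0743), and without Nr1d1+/+ replicate 2 it was 0.96 (0.0707). Insr also did not pass when scaled by library size alone (0.71, 0.0509).

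Of the 5 tested genes of IGFBP proteases and their inhibitors, 1 rose and 4 did not pass, where 16.5% of all tested genes rose. The riser was Pappa, which encodes the protease PAPP-A that cuts IGFBP-4, from 29.5 and 12.9 CPM to 106.6 and 76.7 CPM (log2 fold 2.11 ± 0.36 as SE, with edgeR adjusted p = 0.00412). The genotypes were well apart, and the log2 fold stayed between 1.61 and 2.78 when each library was left out. Stc2, an inhibitor of PAPP-A, was at 4.40 and 3.93 CPM against 7.77 and 6.95 CPM (log2 fold 0.82, edgeR adjusted p = 0.0957). Igfals, the acid-labile subunit that stabilises IGF complexes in blood, rose from 6.99 ± 1.09 to 17.5 ± 6.07 CPM (log2 fold 1.33 ± 0.33 as SE, with edgeR adjusted p = 0.0159). The Igfals call was lost after adjustment for GC and length (0.0607) and when replicate 2 of either genotype was dropped (0.0989 for Nr1d1+/+ and 0.0798 for Nr1d1-/-), all as edgeR adjusted p.

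Of 7 tested adaptor genes 2 fell and 5 did not pass, where 17.3% of all tested genes fell. Gab1, a docking protein, fell from 51.6 and 59.1 CPM to 25.1 and 25.6 CPM (log2 fold -1.13 ± 0.20 as SE, with edgeR adjusted p = 0.0047). Grb10, an inhibitory adaptor of both insulin and IGF-1 receptors, fell from 50.8 and 20.01 CPM to 8.43 and 14.9 CPM (log2 fold -1.59 ± 0.44 as SE, with edgeR adjusted p = 0.0247). The Nr1d1+/+ libraries differed widely for Grb10, and without Nr1d1+/+ replicate 1 its log2 fold was -0.81 (0.185). The Grb10 call was also lost without Nr1d1-/- replicate 1 (-1.25, 0.075) and with the trends removed (-1.28, 0.0734), and it was lost with no low-count filter (0.0566) and in limma-voom (0.0503). Irs2, the paralog of Irs1, was at 4.64 and 3.83 CPM against 1.98 and 3.47 CPM (log2 fold -0.61 ± 0.44 as SE, with edgeR adjusted p = 0.307).

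Growth hormone drives Igf1 transcription in liver through STAT5. Of 7 tested genes of the growth hormone and prolactin input, 4 fell, 1 rose and 2 did not pass, where 17.3% of all tested genes fell. After adjustment for GC and length, Stat5a and Stat5b were the only ones of the 4 that still passed. Stat5a fell from 44.2 and 49.6 CPM to 20.4 and 24.0 CPM (log2 fold -1.08 ± 0.21 as SE, with edgeR adjusted p = 0.00662). Stat5b fell from 68.2 and 56.9 CPM to 31.0 and 34.5 CPM (log2 fold -0.93 ± 0.20 as SE, with edgeR adjusted p = 0.0094). Neither gene's genotypes overlapped. Ghr, the growth hormone receptor, fell from 24.4 ± 5.39 to 12.5 ± 0.516 CPM (log2 fold -0.97 ± 0.26 as SE, with edgeR adjusted p = 0.0217). Its log2 fold was -0.50 after adjustment for GC and length (0.174), -0.75 without Nr1d1+/+ replicate 2 (0.172) and -0.95 without Nr1d1-/- replicate 2 (0.0502). Jak2, the kinase bound to that receptor, was the other member that fell (log2 fold -0.96, edgeR adjusted p = 0.0306), and its call was lost with the trends removed (-0.50, 0.199), with no low-count filter (-0.99, 0.0531), without Nr1d1+/+ replicate 2 (-0.57, 0.272) and without Nr1d1-/- replicate 1 (-0.90, 0.0763). Socs2, which damps growth hormone signalling and is itself induced by STAT5, rose from 30.8 and 31.5 CPM to 46.9 and 85.8 CPM (log2 fold 1.10 ± 0.28 as SE, with edgeR adjusted p = 0.0178). Socs2 did not pass when scaled by library size alone (0.72, 0.0733). The same held when Nr1d1+/+ replicate 1 (1.04, 0.0651), its replicate 2 (1.09, 0.0654) or Nr1d1-/- replicate 2 (0.58, 0.0898) was dropped.

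**Figure D5:**
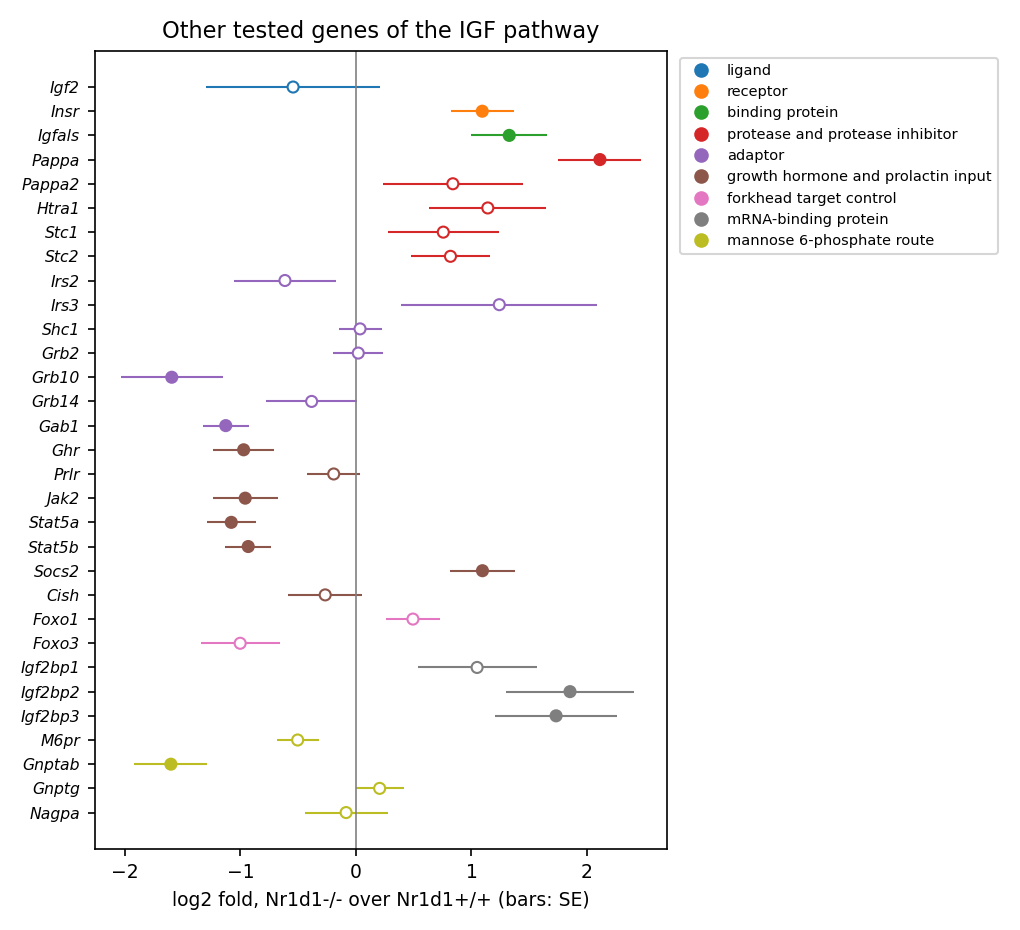
Log2 fold (x axis, bars are SE) of the 31 other tested genes of the IGF pathway, coloured by role; filled points passed at an edgeR adjusted p under 0.05. Pappa and the IGF2 mRNA-binding protein genes lie to the right, and Grb10 and Gnptab lie to the left.

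Igf2r carries lysosomal enzymes tagged with mannose 6-phosphate. Of the 4 tested genes of that route 1 fell and 3 did not pass, where 17.3% of all tested genes fell. Gnptab, which encodes subunits of the enzyme that adds the tag, fell from 16.5 and 26.5 CPM to 6.82 and 7.32 CPM (log2 fold -1.60 ± 0.32 as SE, with edgeR adjusted p = 0.00687). Without Nr1d1+/+ replicate 2 its log2 fold was -1.25 (0.0577). M6pr, the other mannose 6-phosphate receptor, was at 116 and 136 CPM against 94.9 and 82.9 CPM (log2 fold -0.50 ± 0.18 as SE, with edgeR adjusted p = 0.0616), and it passed when scaled by library size alone (-0.89, 0.00579). Of the 3 genes of IGF2 mRNA-binding proteins 2 rose, where 16.5% of all tested genes rose. Igf2bp2 and Igf2bp3 went from means of 1.02 ± 0.0923 and 2.14 ± 0.0492 CPM to 3.77 ± 1.82 and 7.23 ± 4.70 CPM (log2 folds 1.85 and 1.73, edgeR adjusted p = 0.032 and 0.0333). Both were highest in Nr1d1-/- replicate 1, and without it neither passed (1.27, 0.143 and 0.86, 0.221). Both calls were also lost without Nr1d1+/+ replicate 1 (0.13 and 0.107) or replicate 2 (0.171 and 0.124), scaled by library size alone (0.0613 and 0.0646), with no low-count filter (0.0585 and 0.0655) and in limma-voom (0.0576 and 0.0707).

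The genes whose levels over the 4 libraries lay nearest to those of Igf1, by Euclidean distance of mean-centred log2 values, were Espn (distance 0.031), Rnaseh2a (0.046) and the pseudogene Rps15a-ps4 (0.049). Those nearest to Igf1r were Ppm1h (0.018), Pcnxl3 (0.023) and Nfyc (0.031). With 4 libraries and 14801 genes, close neighbours of this kind are easily found.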

How the data were processed

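The submitters' processing notes name TopHat and the mm10 build. Each sample has a table of unnormalised whole-number counts by gene symbol, as deposited by the authors. Their tool versions, counting program, annotation and strand setting are not named in these sources. Libraries were made from total RNA with the SMARTer Stranded kit, per the labels' protocols. All later steps were computed here. Counts were filtered with filterByExpr (minimum count 10) and scaled by TMM. The factors were 1.11 and 1.18 in the Nr1d1+/+ libraries and 0.859 and 0.895 in the Nr1d1-/- libraries, so the scaling differed by genotype. Tests used edgeR 4.0.16 in R 4.3.3 (quasi-likelihood F test, legacy=FALSE, a design of genotype alone, residual degrees of freedom 2, biological coefficient of variation 0.249). A TMM factor moves all genes of a library together, so folds are relative to the bulk of genes. Gene lengths, GC and coordinates came from GENCODE M21 (GRCm38, the assembly of mm10), to which 22873 of 23238 symbols were joined, and promoters from RefSeq (GRCm38.p6). GC and length trends were removed as natural splines with 5 degrees of freedom, passed as offsets. For the distances of patterns 0.1 was added to CPM before log2. The replicates of each genotype differed far beyond counting noise (chi-square per degree of freedom 43.4 and 55.8). Counts were simulated over 14614 genes, with 200 of them changed and the same biological coefficient of variation for every gene. Of the genes given a true log2 fold of 1, 19% were called, with 96% of those given 2 and 0% of those given 0. In the data 33.9% of genes were called, so the adjustment of p was stricter in the simulation. These percentages are therefore not the power of this comparison.

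The members, the pathway and marker lists and the tests were chosen with earlier results of these data known, and the promoter motifs were added later. The text names all 10 members, Nr1d1, up to 4 pathway genes per direction with the lowest p, 6 fixed pathway genes (Igf2, Insr, Irs2, Grb10, Pappa and Ghr) and the 3 nearest patterns to Igf1 and Igf1r. Airn, Jak2, Stc2, M6pr, Igf2bp2 and Igf2bp3 were named after their values were seen. The marker lists also included basal and myoepithelial (5 of 7 tested higher and 1 lower) and skeletal muscle (8 listed, 4 of 4 tested higher). The skeletal muscle markers summed to 753 CPM in Nr1d1-/- replicate 1 and to 5.46 CPM in Nr1d1-/- replicate 2, so that count reflects 1 library. Alternatives were DESeq2 1.42.0, limma-voom (limma 3.58.1), the older quasi-likelihood estimate, other scalings and filters, an adjusted p of 0.1, trends removed, Rn45s removed, a replicate block and each library left out. Figures were drawn with matplotlib 3.10.9.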

Additional observations from a re-analysis of the deposited data

How the results depend on the processing

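Igf1, Igf2r, Igfbp2 and Igfbp4 kept their direction and their call in all 16 alternatives, with log2 folds from 0.93 to 1.93, -1.65 to -1.03, 1.41 to 2.91 and 0.99 to 1.42. Irs1 lost its call in 1 alternative, Igfbp7 in 3 and Igfbp5 in 4, and Igfbp3 gained a call in 5 and Igfbp6 in 2. The alternative with an adjusted p of 0.1 reads the main fit at a looser threshold, so no call can be lost there. It is among the 5 in which Igfbp3 gained a call. The log2 fold of Igf1r turned to 0.15 with the GC and length trends removed, and ranged from -0.43 to 0.11 with 1 library left out (0.11 without Nr1d1-/- replicate 1). That of Airn turned to -0.21 with library size only and to -0.0029 with the trends removed, and that of Nr1d1 ranged from -0.80 to 0.14 (without Nr1d1+/+ replicate 2 and 1). Scaling by library size alone shifted the median log2 fold of all genes to -0.38, and 2 pathway genes were then higher, and 1281 of all genes were higher and 4410 lower in place of 2446 and 2565. With the trends removed, 4 pathway genes and 1656 of all genes were lower. Leaving out 1 library gave 3 to 6 IGF members higher and 1 to 3 lower, 1 to 6 pathway genes higher and 4 to 6 lower, and 1036 to 2358 of all genes higher and 1170 to 2401 lower. The fewest lower members, 1 (Igf2r), came without Nr1d1+/+ replicate 1, and the fewest higher pathway genes, 1 (Pappa), without Nr1d1+/+ replicate 2. The cause was not tested. Where a genotype kept 1 library, it was assumed to vary like the other genotype. The labels do not say that replicate numbers pair the samples, and same-numbered libraries had a correlation of deviations of 0.026. With the replicate block 5 members were higher and 3 lower, Igfbp6 passing with a log2 fold of 1.02 (edgeR adjusted p = 0.0332), and 2622 of all genes were higher and 2704 lower. Per-length levels with the longest transcript as the length moved by more than the replicate spread for Igf1, Igf1r and Igfbp4 in both genotypes and for Igfbp2 and Igfbp3 in Nr1d1+/+. With 2 libraries per genotype and 200 changed genes, a simulated log2 fold of 1 was called in 19% of genes. Far more genes were called in the data, so this is not the power of this comparison.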
